A study of Caenorhabditis elegans with 24 samples.

Results

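The genes described here encode proteins of the mitochondrial ribosome in Caenorhabditis elegans. They were taken as every gene whose symbol begins with mrps or mrpl and a number, and each was read by its brightest probe set that names 1 gene. The array holds 59 such genes, 25 mrps genes of the small subunit and 34 mrpl genes of the large subunit, among 17118 genes with a probe set of their own. Of these 59, 57 passed the filter on dim probe sets (a log2 intensity above 4 on at least 3 arrays), as did 12277 of all genes. The 2 that did not, mrps-31 and mrpl-45, stood near a log2 intensity of 3 in every group and are not counted further.

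Mitochondria carry a small genome that encodes core subunits of the respiratory chain, and a ribosome of their own translates it inside the organelle. Every protein of that ribosome is encoded in the nucleus, made in the cytosol and imported, so that its 2 subunits are assembled from proteins of nuclear origin and RNA of mitochondrial origin. In worms, knockdown of mitochondrial ribosomal proteins such as mrps-5 is known to extend lifespan and to induce the mitochondrial stress response. TOR is a kinase that couples nutrients to growth and to ribosome production in the cytosol, and Rheb is the small GTPase that activates it.

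Messenger RNA was measured in 24 whole-worm samples of the wild type N2, each on 1 Affymetrix C. elegans Genome Array from 5 µg of total RNA. Worms grown at 20 °C on plates for RNA interference (RNAi), in which they eat bacteria carrying double-stranded RNA, received control, Cel-Rheb or Cel-TOR RNAi. Food was given ad libitum or withheld for 48 h, and worms were collected at day 4 of adulthood. The 6 groups hold 5 control fed, 5 control fasted, 4 Rheb fed, 4 Rheb fasted, 3 TOR fed and 3 TOR fasted arrays, and the design addresses the response to fasting and its dependence on Rheb and TOR. The labels call the arrays of a group biological replicates. The RNA comes from whole animals, so fewer cells of a type and less RNA per cell cannot be told apart.

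The targets were checked first. Both probe sets of let-363, which encodes TOR, were lower on TOR RNAi plates, with log2 differences of -1.45 and -1.93 in fed and -1.44 and -1.94 in fasted worms. Of the 2 probe sets of rheb-1, the dimmer was lower on Rheb RNAi plates, with differences of -2.55 in fed and -1.85 in fasted worms. The brighter differed by -0.30 and -0.50 and did not pass the test (limma's adjusted p = 0.35 and 0.15). The arrays also fell into 2 classes by a technical measure, the 25th percentile of intensity on the linear scale, which is set by dim probe sets. In linear units it was 9.42 to 10.27 on arrays 4 and 5 of both control groups, on array 4 of both Rheb groups and on all 6 TOR arrays, and 10.63 to 12.03 on arrays 1 to 3 of the control and Rheb groups. No control array 1 to 3 therefore shares a class with any TOR array. For the members, each comparison with control is given also within these classes, a split made after the data were seen. The other gene lists and the tissue markers are given without the split.

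Taken over the 57 members, the mean log2 intensity was lowest in fed controls and highest in fasted TOR RNAi worms. It was 9.23 ± 0.17 (SD, n = 5) in control fed and 9.29 ± 0.14 (SD, n = 5) in control fasted worms. It was 9.34 ± 0.10 (SD, n = 4) in Rheb fed and 9.54 ± 0.05 (SD, n = 4) in Rheb fasted worms, and 9.46 ± 0.05 (SD, n = 3) in TOR fed and 9.72 ± 0.08 (SD, n = 3) in TOR fasted worms. The 3 TOR fasted arrays, at 9.64 to 9.79, lay above all other 21 arrays. The fed control arrays split by class: arrays 1 to 3 stood at 9.03 to 9.18, while arrays 4 and 5 stood at 9.39 and 9.42, beside the TOR fed arrays at 9.41 to 9.50.

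**Figure D1:**
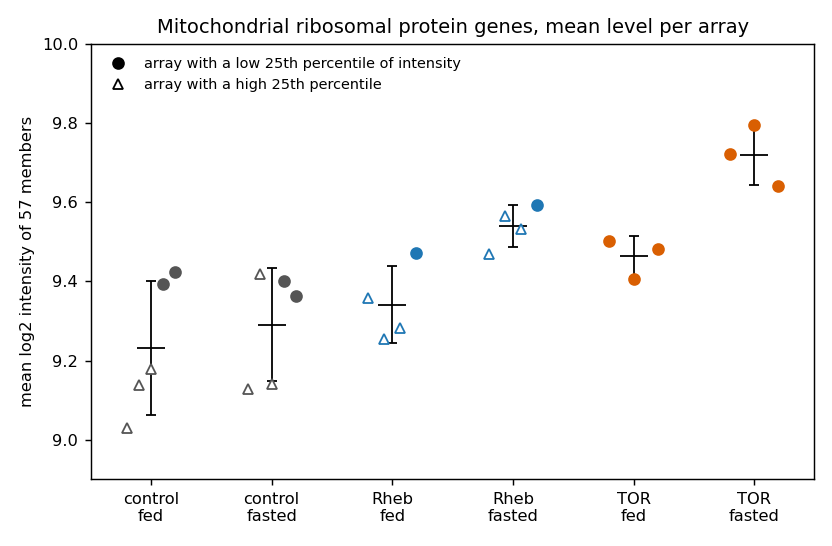
Mean log2 intensity of the 57 members on each array (vertical axis) in the 6 groups (horizontal axis); filled circles are arrays with a low 25th percentile of intensity and open triangles those with a high one, and bars give the group mean ± SD. The 3 TOR fasted arrays lie between 9.64 and 9.79, above every other array, and control fed arrays 4 and 5 lie at 9.39 and 9.42, beside the TOR fed arrays.

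Taken singly, 42 of the 57 members had their highest group mean in TOR fasted and 32 had their lowest in control fed, and 25 had both. The shares of all genes with these highest and lowest groups are not given. From lowest to highest group mean, members spanned a median of 0.55 on the log2 scale, or 1.46-fold, and mrpl-9 had the widest span at 1.31, or 2.48-fold. The level of 55 members correlated positively with the mean of the other members over the 24 arrays, with a median r of 0.69. These r describe arrays that share group, plate and normalisation. The exceptions were mrpl-40 (r = -0.21) and mrpl-28 (r = -0.04), both of which encode large-subunit proteins.

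**Figure D2:**
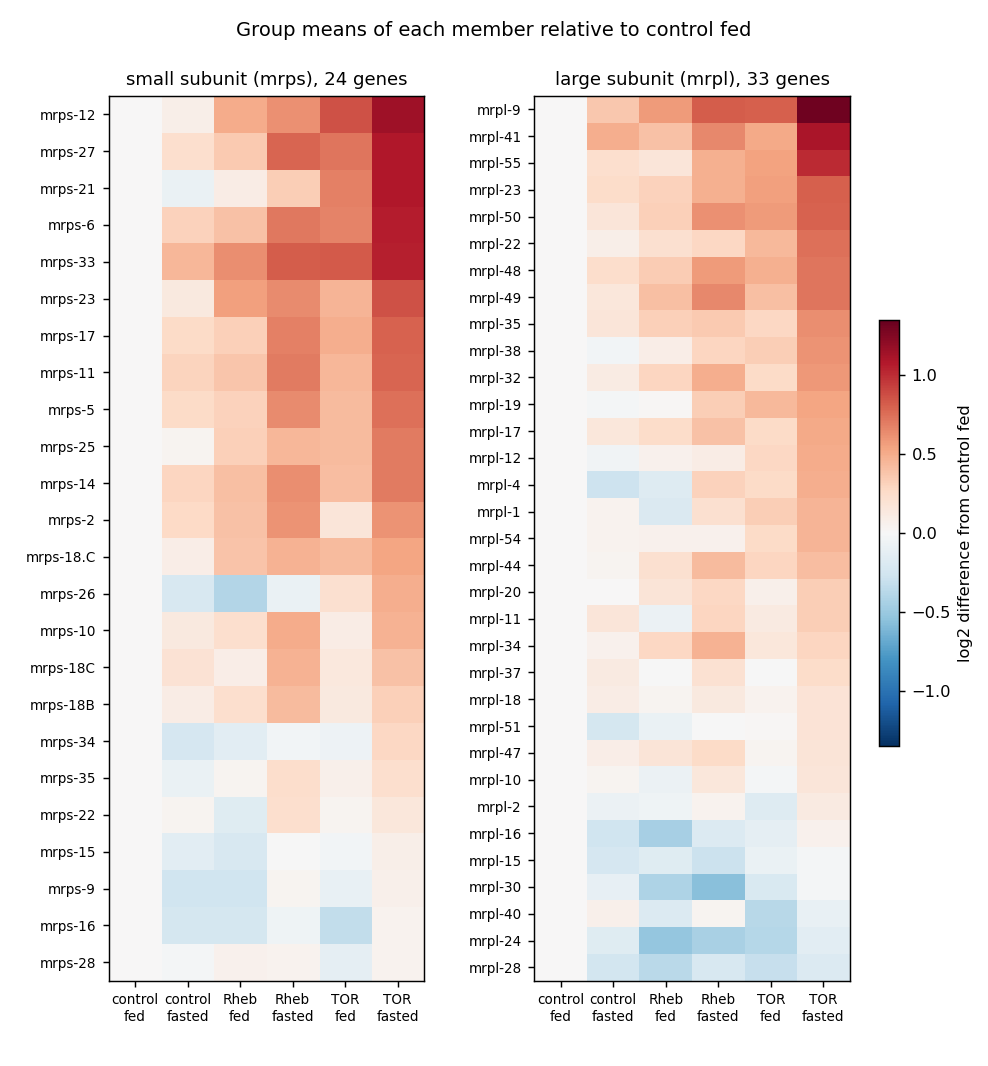
Group mean of each of the 57 members minus its own mean in control fed worms, as a log2 difference (colour), for 24 small-subunit and 33 large-subunit genes (rows) in the 6 groups (columns). Most rows are reddest in TOR fasted, while mrpl-24, mrpl-28 and mrpl-30 are blue in Rheb fed.

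TOR RNAi in fasted worms gave the broadest difference. Of the 57 members, 26 were higher than in fasted controls and 0 were lower at limma's adjusted p under 0.05, where 14.9% of all genes tested were higher and 10.2% lower (25.2% in all). At an unadjusted p under 0.05, 36 were higher and 0 lower. The share of all genes at that threshold is not given, here or beside the unadjusted counts below, so those counts are descriptions of the members only. The median member difference was 0.41 (1.33-fold), against 0.03 for all genes, and 56 of 57 members had a difference above 0. The share of all genes above 0 is given only for fasting on Rheb RNAi plates. The other counts of differences above 0 therefore describe the members only. By subunit, 12 of 24 small-subunit and 14 of 33 large-subunit members were higher. Of the 37 members with a bacterial counterpart by number 14 were higher, and of the 20 members known only from mitochondria 12 were. Centring each array on its median left 22 members higher and 0 lower, and 1510 of all genes higher and 1371 lower.

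The 5 largest rises were in mrps-21, mrps-12, mrpl-9, mrps-27 and mrpl-55. mrps-21, whose bacterial counterpart is a protein of the small subunit, had log2 intensities of 8.28, 8.59, 7.61, 8.66 and 8.88 on the fasted control arrays and of 9.61, 9.59 and 9.50 on the fasted TOR RNAi arrays. The groups did not overlap, and the difference was 1.16 ± 0.25 (SE) with limma's adjusted p = 0.0017. mrps-12 encodes the counterpart of the bacterial protein at the decoding centre of the small subunit. It read 8.51, 8.40, 8.68, 8.65 and 8.91 on the fasted control arrays and 9.35, 9.92 and 9.81 on the fasted TOR RNAi arrays, again without overlap. Its difference was 1.06 ± 0.16, with limma's adjusted p = 4.8e-05.

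mrpl-9, of the large subunit, stood at 9.94, 10.26, 10.10, 10.46 and 10.54 in fasted controls and at 11.26, 11.28 and 11.07 in fasted TOR RNAi worms. All 3 TOR arrays were above all 5 control arrays, by a mean of 0.95 ± 0.19 (limma's adjusted p = 9.4e-04). mrps-27 and mrpl-55 belong to the members known only from mitochondria. mrps-27 was higher by 0.86 ± 0.22 (limma's adjusted p = 0.0069), a call that ended without TOR fasted array 2 and within the low class. mrpl-55 was higher by 0.78 ± 0.18 (limma's adjusted p = 0.0032). None of these 5 genes overlapped between the groups, which gives each an exact permutation p of 0.036 (two-sided), and 3 against 5 arrays allow no smaller value. The 5 were picked as the largest called rises on these same arrays, so this separation is no further evidence. The same holds below for each gene that is named because it was called. The share of all genes that separated in this way is not given for any comparison.

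Within the arrays of low 25th percentile, fasted TOR RNAi could be set against control arrays 4 and 5 only. There 6 members were higher and 0 lower, where 11.2% of all genes were called in either direction, so members were called no more often than all genes. Of the 57 differences 51 were above 0, with a median of 0.35. The 6 were mrps-12 (0.91), mrps-21 (0.80), mrpl-55 (0.74), mrpl-9 (0.71), mrpl-22 (0.62) and mrpl-49 (0.59). With the class as a term in the fit of all arrays 18 members were higher and 0 lower, where 18.3% of all genes were called, and 17 of the 18 were among the 26. Leaving out TOR fasted array 2 left 13 of 57 called, and the share of all genes called without it is not given.

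**Figure D3:**
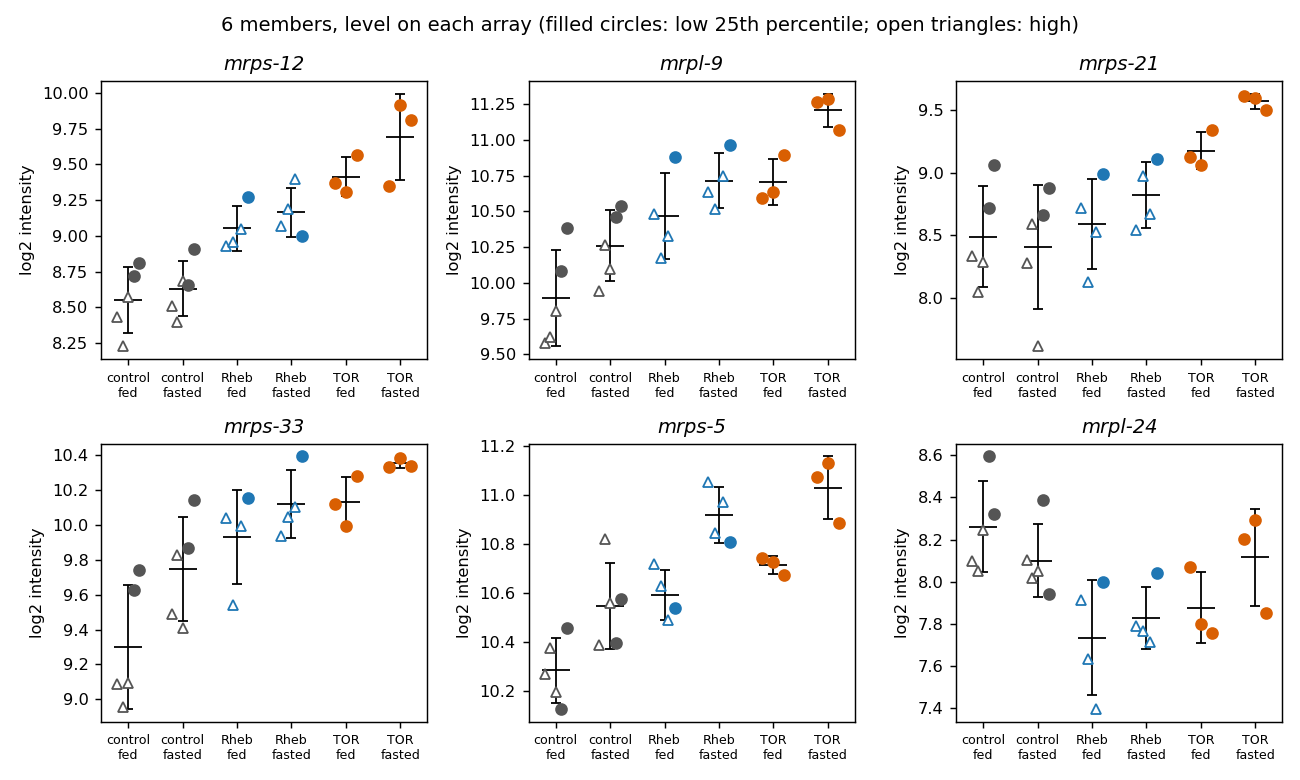
Log2 intensity (vertical axes, a separate scale for each gene) of 6 members on each array of the 6 groups; symbols are as in the plot of array means, and bars give the group mean ± SD. For mrps-12 the TOR RNAi arrays, at 9.30 to 9.92, lie above all control arrays, at 8.23 to 8.91, in both feeding states.

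In fed worms TOR RNAi gave a smaller set, and the call depended on the class of the control arrays. Here 18 members were higher and 1 lower than in fed controls, where 19.9% of all genes were higher and 13.4% lower (33.3% in all). Counting both directions, members were thus called about as often as all genes, with more of them higher and fewer lower. The median member difference was 0.26 (1.20-fold), against 0.04 for all genes, with 43 of 57 above 0. All 18 were also among the 26 that were higher in fasted worms (100% of the fed and 69.2% of the fasted list), where the genes higher in fed worms that were also higher in fasted ones made up 53.3% of the fed and 70.9% of the fasted list over all genes. The fed and fasted comparisons share no arrays, but same-numbered fed and fasted arrays deviated together (r of 0.51 to 0.60 for control and 0.50 to 0.57 for TOR) and both carry the same split by 25th percentile, so they are not independent. Across the 57 members the fed and fasted TOR differences had r = 0.85, against 0.73 over all genes.

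The largest fed rises were in mrps-12, mrps-33, mrpl-9, mrps-27 and mrps-21. mrps-12 read 8.43, 8.23, 8.57, 8.72 and 8.81 on the fed control arrays and 9.37, 9.30 and 9.57 on the fed TOR RNAi arrays, without overlap, a difference of 0.86 ± 0.16 (limma's adjusted p = 2.8e-04). mrps-33, a small-subunit protein known only from mitochondria, was at 9.09, 8.96, 9.09, 9.63 and 9.74 in fed controls and at 10.12, 9.99 and 10.28 with TOR RNAi. Its difference was 0.83 ± 0.19 (limma's adjusted p = 0.0021), and control arrays 4 and 5 lay between the other controls and the TOR arrays. mrpl-9 was higher by 0.81 ± 0.19 (limma's adjusted p = 0.0021) and mrps-27 by 0.72 ± 0.22 (limma's adjusted p = 0.015). mrps-21 was higher by 0.68 ± 0.25 (limma's adjusted p = 0.037), although control fed array 5, at 9.06, overlapped the TOR fed arrays at 9.06 to 9.34.

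The 1 lower member was mrpl-40, a large-subunit protein known only from mitochondria. It read 9.92, 9.98, 9.91, 9.98 and 9.81 in fed controls and 9.69, 9.41 and 9.55 with TOR RNAi, without overlap, with a difference of -0.37 ± 0.13 (limma's adjusted p = 0.033). That call ended without any 1 of control fed arrays 1 to 4 or of TOR fed arrays 2 and 3. Within the arrays of low 25th percentile 1 member was called, mrps-12 at 0.65 ± 0.19 (limma's adjusted p = 0.040), where 19% of all genes were called, and the median member difference fell to 0.07, with 33 of 57 above 0. With the class as a term 9 members were higher, all among the 18, and 3 were lower (mrpl-24, mrpl-30 and mrps-16), where 28.1% of all genes were called.

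Calls in fed worms also depended on the scaling. Centring each array on its median moved the median difference of all genes from 0.04 to -0.16 and that of the members by a like amount, from 0.26 to 0.07. It left 5 members higher and 4 lower, and 1629 of all genes higher and 2973 lower. Counts moved by more than 1.5 times without control fed array 1 or 3 or TOR fed array 1 or 2, which each left 12 members called, and without TOR fed array 3, which left 9. The share of all genes called without these arrays is not given.

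**Figure D4:**
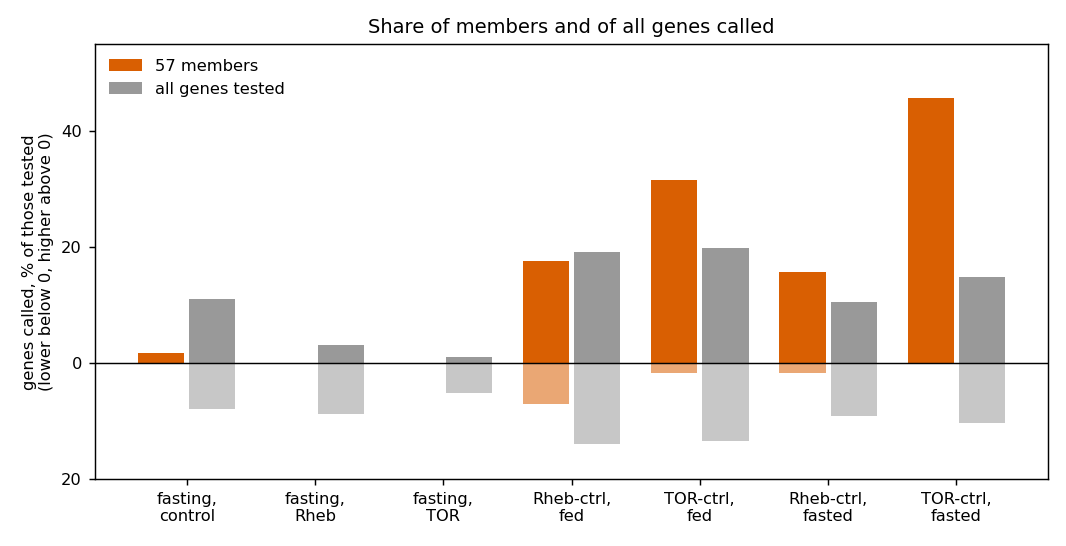
Percent of the 57 members and of all genes tested that were called higher (full colour, above 0) or lower (pale colour, below 0) in 7 comparisons (horizontal axis; ctrl is control RNAi). TOR RNAi in fasted worms has 26 members higher where 14.9% of all genes were, and the 3 fasting comparisons have at most 1 member called.

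With Rheb RNAi in fed worms, members were called in both directions, but no more often than all genes. Against fed controls 10 were higher and 4 lower, where 19.2% of all genes were higher and 13.9% lower (33.1% in all), so the share of members called was below that of all genes in each direction. The median member difference was 0.16, against 0.02 for all genes. Of 24 small-subunit members 8 were higher and 0 lower, and of 33 large-subunit members 2 were higher and 4 lower, a difference between subunits that was not tested. In the test at unadjusted p under 0.05, 18 members were higher and 5 lower.

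The 5 largest rises were mrps-33 at 0.63 ± 0.18 (limma's adjusted p = 0.0080), mrpl-9 at 0.57 ± 0.17 (limma's adjusted p = 0.013), mrps-23 at 0.56 ± 0.18 (limma's adjusted p = 0.022), mrps-12 at 0.50 ± 0.14 (limma's adjusted p = 0.010) and mrps-14 at 0.40 ± 0.15 (limma's adjusted p = 0.040). mrps-12 read 8.93, 8.96, 9.05 and 9.27 on the fed Rheb RNAi arrays, above every fed control array (8.23 to 8.81). For mrps-33, mrpl-9, mrps-23 and mrps-14 the groups overlapped. The 4 lower members all encode large-subunit proteins with a bacterial counterpart. mrpl-24, whose counterpart starts large-subunit assembly in Escherichia coli, was at 8.10, 8.05, 8.24, 8.59 and 8.32 in fed controls and at 7.91, 7.63, 7.40 and 8.0 with Rheb RNAi. The groups did not overlap, and the difference was -0.53 ± 0.15 (limma's adjusted p = 0.0077). mrpl-16 (-0.44), mrpl-30 (-0.42) and mrpl-28 (-0.36) were also lower, but for each of them the groups overlapped.

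These calls moved with the fit. Centring on array medians gave 1 member higher and 7 lower, and the median member difference went from 0.16 to 0.00. The median of all genes moved by a like amount, from 0.02 to -0.15, with 1650 of all genes higher and 2805 lower after centring against 2360 and 1705 before it. Fitting only the 2 groups compared left 3 higher and 1 lower, and leaving out control fed array 1 or 3 or Rheb fed array 4 left 8 called, and Rheb fed array 1 left 6. The share of all genes called in these fits is not given. Same-numbered control and Rheb arrays deviated together, and with their numbers as a block (TOR numbers kept apart) 22 members were higher and 6 lower, where 52.8% of all genes were called. With the class as a term 19 members were higher and 4 lower (40.6% of all genes called). Within the arrays of high 25th percentile 8 members were higher and 1 lower (25.1% of all genes called), and within the low class, with 1 Rheb array against 2 control arrays, 0 were called (12.5% of all genes). The single Rheb array is there assumed to vary like the other groups.

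In fasted worms Rheb RNAi left 9 members higher and 1 lower, where 10.5% of all genes were higher and 9.04% lower (19.6% in all). The median member difference was 0.28, with 53 of 57 above 0, against 0.06 for all genes. The higher members were mrps-12 (0.53), mrpl-49 (0.49), mrpl-50 (0.45), mrps-17 (0.43), mrpl-34 (0.41), mrps-25 (0.40), mrps-11 (0.40), mrps-5 (0.37) and mrps-18B (0.33), and mrpl-30 was lower (-0.46). The least steady of these calls were mrps-17 and mrps-18B (limma's adjusted p = 0.045 and 0.044). They ended without any 1 of 15 and of 13 of the 24 arrays. Of the members higher with Rheb RNAi, 4 were so in both feeding states, 40% of the fed and 44.4% of the fasted list, against 39.8% and 72.6% over all genes. Across the 57 members the fed and fasted Rheb differences had r = 0.70, against 0.65 over all genes. The number of calls rose to 31 higher and 2 lower with the replicate block, where 41.3% of all genes were called, and to 25 higher and 1 lower with the class of 25th percentile as a term (26.9% of all genes). It fell to 2 when only the groups compared were fitted. It was 9 higher and 1 lower within the high class (19.1% of all genes) and 0 within the low class (5.23%). Leaving out 1 array moved the count by more than 1.5 times in 5 cases: control fasted 1 (5 called) or 3 (6), and Rheb fasted 1 (6), 3 (4) or 4 (5). The share of all genes called is not given for these omissions or for the fit of only the groups compared.

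mrps-5, whose knockdown is known in worms, was higher in all 4 comparisons with control. It read 10.27, 10.38, 10.20, 10.13 and 10.46 in control fed, 10.72, 10.63, 10.49 and 10.54 in Rheb fed and 10.74, 10.72 and 10.67 in TOR fed worms. In fasted worms it read 10.39, 10.82, 10.56, 10.39 and 10.58 with control, 11.05, 10.84, 10.97 and 10.81 with Rheb and 11.07, 11.13 and 10.88 with TOR RNAi. Both fed knockdown groups lay above all fed controls, while control fasted array 2 overlapped the Rheb fasted arrays. The differences were 0.31 ± 0.11 (Rheb, fed), 0.43 ± 0.12 (TOR, fed), 0.37 ± 0.11 (Rheb, fasted) and 0.48 ± 0.12 (TOR, fasted), with limma's adjusted p of 0.033, 0.0082, 0.018 and 0.0052. The pairs share their control arrays. Both fed calls ended with median centring. Both Rheb calls ended when only the groups compared were fitted, within either class and without some single arrays (control fed 1, 3 or 4 or Rheb fed 1 or 2 for fed worms, Rheb fasted 1 or 3 for fasted worms). The fasted TOR call ended when only the groups compared were fitted, and within the low class the TOR differences were 0.42 (limma's adjusted p = 0.087) and 0.54 (limma's adjusted p = 0.052).

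Rheb and TOR RNAi were set against each other directly, a comparison added after the data were seen. In fed worms 0 members were called, where 5.64% of all genes were (2.8% higher and 2.84% lower), and 4 members had an unadjusted p under 0.05. In fasted worms 1 was, mrpl-22, whose bacterial counterpart lines the exit tunnel of the large subunit, where 4.23% of all genes were called (2.71% higher and 1.52% lower). mrpl-22 read 8.77, 8.92, 9.07 and 8.67 with Rheb and 9.23, 9.35 and 9.37 with TOR RNAi, without overlap, a difference of 0.46 ± 0.12 (limma's adjusted p = 0.027). The call ended when only these groups were fitted, without Rheb fasted 3 and TOR fasted 2 together, with the class as a term, within the low class, and without Rheb fasted array 1 or 4 or TOR fasted array 2 or 3.

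Fasting by itself moved few members past the test on any plate. On control plates 1 member was higher and 0 lower, where 11% of all genes were higher and 7.91% lower (18.9% in all). This was mrpl-41, a large-subunit protein known only from mitochondria. It read 8.73, 8.76, 8.91, 9.16 and 9.34 on fed and 9.30, 9.37, 9.35, 9.54 and 9.77 on fasted arrays, where fed array 5 overlapped. Its difference was 0.49 ± 0.15 (limma's adjusted p = 0.028), and the call ended without any 1 of control fed arrays 1 to 3 or control fasted arrays 4 and 5, with median centring, and within either class. The median member difference was 0.08, against 0.04 for all genes, with 38 of 57 above 0.

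On Rheb RNAi plates 0 members were called after fasting, where 11.9% of all genes were (3.23% higher and 8.67% lower), and 11 had an unadjusted p under 0.05, all of them higher. The median difference was 0.21, with 54 of 57 above 0, against 0.09 and 61.7% above 0 for all genes. On TOR RNAi plates 0 members were called, where 6.24% of all genes were (1.08% higher and 5.16% lower), and 9 had an unadjusted p under 0.05, all higher. There 57 of 57 differences were above 0, from 0.06 to 0.60 with a median of 0.25, against a median of 0.08 for all genes. Same-numbered fed and fasted arrays of a plate deviated together, and the replicate block (TOR numbers apart) called 9 higher and 3 lower on control plates, 15 higher and 0 lower on Rheb plates and 6 higher and 0 lower on TOR plates, where 38.3%, 31.1% and 14.4% of all genes were called.

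The fasting responses differed between plates for few members. The difference between the Rheb and control responses passed the test for 1 member, mrps-9, where 4.89% of all genes passed (1.07% higher and 3.82% lower). mrps-9 encodes the counterpart of a bacterial small-subunit protein that touches the tRNA in the peptidyl site. On control plates it read 9.02, 9.19, 9.36, 9.35 and 9.37 fed and 8.75, 9.18, 9.07, 9.09 and 8.84 fasted. On Rheb plates it read 8.94, 9.14, 8.96 and 8.92 fed and 9.20, 9.38, 9.24 and 9.36 fasted, so that all 4 fasted arrays were above all 4 fed ones. The difference between the responses was 0.58 ± 0.16 (limma's adjusted p = 0.033), a call that ended without any 1 of 10 arrays: control fed 3, 4 or 5, control fasted 1 or 5, Rheb fed 1, 3 or 4, and Rheb fasted 2 or 4. It also ended when only these 4 groups were fitted, without Rheb fasted 3 and TOR fasted 2 together, and within either class, and the replicate block called 3 members (17.5% of all genes).

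The TOR and control responses differed for 0 members, where 2.44% of all genes passed (0.7% higher and 1.74% lower), and 4 had an unadjusted p under 0.05. The smallest p was that of mrps-34, known only from mitochondria, at 0.57 ± 0.16 (limma's adjusted p = 0.056), and the replicate block called 1 member (9.11% of all genes). The TOR and Rheb responses differed for 0 members, where 0.318% of all genes passed (0.187% higher and 0.13% lower), and 0 had an unadjusted p under 0.05. The replicate block called 0 as well, where 1.28% of all genes passed.

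Some members have more than 1 probe set. Of the 5 with several, mrpl-38, mrpl-4 and mrpl-44 had probe sets that disagreed in call. In fasted TOR RNAi worms the 2 probe sets of mrpl-38 differed from control by 0.65 and 0.04, and those of mrpl-4 by 0.77 and 0.55, of which only the first passed for each gene. For mrpl-44 the probe sets gave 0.38, 0.41 and -0.23 in fasted and 0.30, 0.13 and -0.50 in fed worms, with the 0.41 and the -0.50 called, so its direction is uncertain. mrps-2 and mrpl-4 are neighbours in the RefSeq annotation.

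Other genes of mitochondrial translation were called in both directions. Of 10 translation factors and ribosome assembly genes tested, 4 were lower and 0 higher in fed TOR RNAi worms, and 2 higher and 1 lower in fasted ones. For this list and the 2 that follow, 19.9% of all genes were higher and 13.4% lower in fed worms (33.3% in all). In fasted worms 14.9% were higher and 10.2% lower (25.2% in all). noa-1, a GTPase known from mammals to act in mitochondrial ribosome assembly, was lower by -0.84 ± 0.15 in fed and -0.90 ± 0.15 in fasted worms. The elongation factor gene gfm-1 was lower by -0.66 in fed worms, and dap-3, itself a small-subunit protein without an mrps name, was higher by 0.50 in fasted worms. Of 10 mitochondrial aminoacyl-tRNA synthetases, which charge the organelle's tRNAs, 0 passed in fed and 4 were higher in fasted TOR RNAi worms, ears-2 most (1.05 ± 0.23). The array-wise mean log2 intensity of the synthetases was 6.69 to 7.28 in control fasted and 7.33 to 7.61 in TOR fasted worms, without overlap. Of 5 genes of mitochondrial DNA upkeep, 0 passed in either.

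The respiratory chain, whose mitochondrially encoded subunits this ribosome makes, had another pattern. Of 39 nuclear genes for it and the ATP synthase, 22 were higher and 1 lower after fasting on control plates, where 1 of 57 members was called. There 11% of all genes tested were higher and 7.91% lower. With Rheb RNAi in fed worms 20 of the 39 were higher and 1 lower, where 19.2% of all genes were higher and 13.9% lower. With TOR RNAi in fed worms 16 of the 39 were higher and 2 lower, where 19.9% of all genes were higher and 13.4% lower. In fasted TOR RNAi worms 4 of the 39 were higher and 2 lower, where 14.9% of all genes were higher and 10.2% lower. Of 75 cytosolic ribosomal protein genes, between 0 and 2 were called in each of these comparisons, with medians from -0.02 to 0.13. Of 13 import genes 2 were higher and 0 lower in each TOR RNAi comparison, among them timm-23 of the inner-membrane translocase. Of all genes, 19.9% were higher in the fed and 14.9% in the fasted comparison. Of 12 chaperone, protease and stress genes, 1 was higher and 2 lower in fed TOR RNAi worms, where 33.3% of all genes were called. The higher gene was the protease lonp-1 (0.32), and the lower were the chaperone hsp-60 (-0.84) and the protease spg-7 (-0.56). In fed Rheb RNAi worms hsp-60 was also lower (-1.06) and dve-1, a regulator of the mitochondrial stress response, higher (0.54). In fasted worms atfs-1 (0.91) and hsp-6 (0.42) were higher with Rheb RNAi, where 10.5% of all genes were higher. With TOR RNAi 3 genes were higher in fasted worms, where 14.9% of all genes were. They were atfs-1 (0.85), the regulator of the mitochondrial stress response, the chaperone hsp-6 (0.55) and the protease clpp-1 (0.44).

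**Figure D5:**
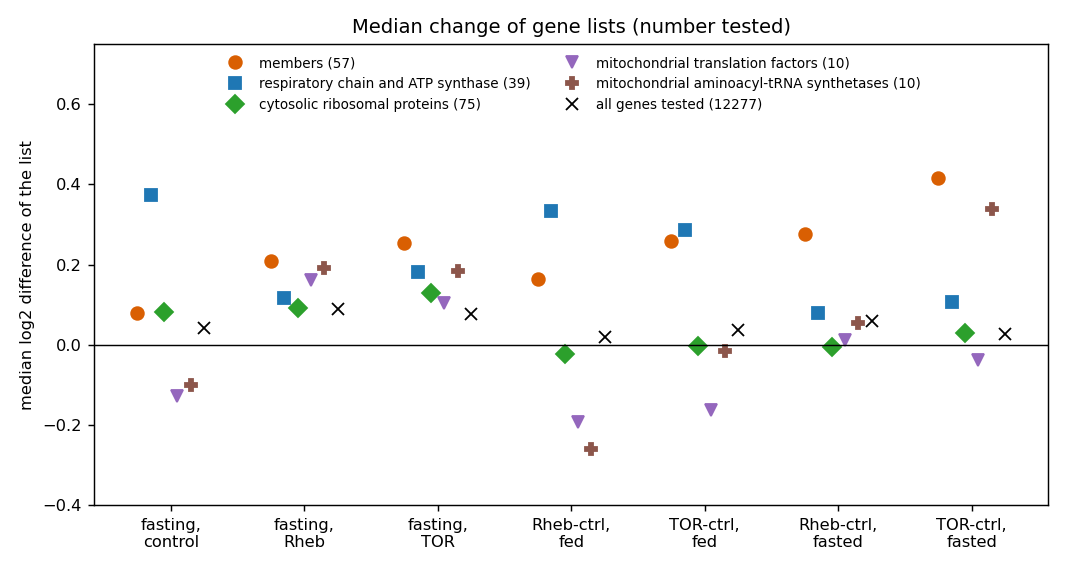
Median log2 difference (vertical axis) of the members, of 4 other gene lists and of all genes tested in 7 comparisons (horizontal axis; numbers of genes tested in the key). The members have their highest median, 0.41, for TOR RNAi in fasted worms, where the respiratory chain genes are at 0.11, and the respiratory chain genes have theirs, 0.37, for fasting on control plates, where the members are at 0.08.

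Markers of tissues moved in the same comparisons, and their part in the members' differences was not tested. The array-wise mean log2 intensity of 11 epidermis markers was 6.89 to 7.35 in control fed and 6.50 to 6.80 in control fasted worms. It was 6.21 to 6.50 in TOR fed and 6.13 to 6.51 in TOR fasted worms. The means of the sperm and of the zygotic embryo markers overlapped between control and TOR RNAi in both feeding states. Of 12 oocyte and eggshell markers, 10 were lower in fed and 12 in fasted TOR RNAi worms, and the array-wise mean log2 intensity of the list was 12.7 to 13.1 in control fed, 12.3 to 13.02 in control fasted, 11.8 to 12.2 in TOR fed and 11.8 to 12.1 in TOR fasted worms. Of 12 germline markers, 5 were lower in fed and 0 in fasted TOR RNAi worms. Of all genes tested, 13.4% were lower in fed and 10.2% in fasted TOR RNAi worms. Of 12 neuron markers, 8 were higher in fed and 4 in fasted TOR RNAi worms, where 19.9% and 14.9% of all genes were higher. With Rheb RNAi in fed worms 9 oocyte and eggshell markers were lower and 1 higher, and 6 germline markers were lower. In the same comparison 10 of 12 body wall muscle and 8 neuron markers were higher, where 19.2% of all genes were higher and 13.9% lower. Of 12 intestine markers, 4 were lower after fasting on control, 7 on Rheb and 6 on TOR plates. Of all genes, 7.91%, 8.67% and 5.16% were lower there. The log2 ratio of 3' to middle probe sets of actin and GAPDH, a measure of RNA quality, was 0.63 ± 0.13 (SD, n = 5) in control fed and 0.78 ± 0.15 (SD, n = 3) in TOR fasted worms. Without the 2 arrays of highest ratio (Rheb fasted 3 and TOR fasted 2) the members called were 13 for TOR RNAi and 4 for Rheb RNAi in fasted worms. The share of all genes called without these 2 arrays is not given.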

How the data were processed

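Whole-worm RNA of 24 samples was hybridised to 1 array each, and the array number limits the precision. The deposited values are GCRMA intensities on a linear scale, per the submitters' processing notes, which give no version; the authors' design text names GeneSpring GX 7.3.1. The arrays' distributions still differed. Array medians were 46.9 to 58 on the linear scale. All value columns were used.

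Values were taken as log2. Of 22625 probe sets, 20766 name 1 gene in the platform table, 887 several and 895 none, and 77 are array controls; mrpl-58 and mrpl-13, on probe sets naming 2 genes, were left out. All 59 members' Entrez numbers gave the same symbol in RefSeq, and mrps-18C and mrps-18.C are separate entries there. Linear models of 6 group means were fitted to 12277 genes on all 24 arrays (limma 3.58.1, R 4.3.3, moderated variances), with Benjamini-Hochberg adjustment over all genes within a comparison and calls at an adjusted p under 0.05. Exact permutation tests were two-sided (SciPy 1.17.1), and the smallest p for 3 against 3 arrays is 0.1. The fit was tested on simulated data.

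Named genes were the members called in a comparison (the 5 largest rises and falls where over 10 were called), mrps-5, members with disagreeing probe sets, the targets, and up to 3 genes per list; mrpl-18 was the brightest member (mean log2 12.04) and mrpl-45 the dimmest (3.05). Others, such as mrps-34 and the 3 lower members with the class as a term, were named after their values were seen. Members and lists were chosen with earlier results of these data known. After the values were seen, era-1 was taken out of the list of translation factors, because RefSeq lists the counterpart of the mammalian assembly GTPase apart from it, as eral-1. Same-numbered arrays deviated together within each plate (r 0.44 to 0.73) and between Rheb and control (0.23 to 0.66), but not for TOR against the others (-0.35 to 0.25), so the block by number was read for the former. Alternatives were 12 planned settings, 3 splits by array percentile added after the data were seen, and each of 24 arrays left out in turn.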

Additional observations from a re-analysis of the deposited data

Results flagged for a closer look

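Of 100 groups of 4 or 5 arrays of the members examined, 2 held an array far from the others, where chance gives about 1 in 20. mrps-18B, of the small subunit, read 10.42 on control fasted array 2, with the other 4 at 9.98 to 10.08. It read 10.58 on Rheb fasted array 2, with the other 3 at 10.37 to 10.40. The fasting response of mrps-9 differed between Rheb and control RNAi plates by 0.58 on the log2 scale, by limma's interaction term.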

How the results depend on the processing

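Counts are of members called, in the order fasting on control, Rheb and TOR plates (main counts 1, 0, 0), Rheb and TOR against control fed (14, 19) and fasted (10, 26), the 3 differences of responses (1, 0, 0), and TOR against Rheb fed and fasted (0, 1). With the replicate block they were 10, 10, 2, 26, 29, 28, 36, 2, 1, 0, 9 and 15, and with TOR numbers separate 12, 15, 6, 28, 33, 3, 1 and 0 for the comparisons within plates, of Rheb with control and of responses. The 29, 36, 9 and 15 set TOR against another plate. Their block joined TOR numbers to those of the other plates, with which TOR arrays did not deviate together (r -0.35 to 0.25). These 4 counts are therefore not read as results. The share of all genes called rose with the block too, from 33.1% to 52.8% for Rheb in fed worms with TOR numbers separate. Median centring gave 2, 2, 1, 8 and 9 in the first 5 and 1 for the TOR against control response, and quantile normalisation 3, 0, 0, 22, 23, 21 and 29 in the first 7. An intensity trend, robust or not, gave 2 for fasting on control plates. Only the groups compared gave 4 (Rheb fed), 2 (Rheb fasted), 0 (Rheb response) and 0 (TOR against Rheb, fasted). Leaving out Rheb fasted 3 and TOR fasted 2, whose 3' to middle ratios were highest, the counts were 4 (Rheb fasted), 13 (TOR fasted), 0 (Rheb response) and 0 (TOR against Rheb, fasted). No filter, a filter at log2 6 and the mean of probe sets each gave 1 for the TOR against control response. The class of 25th percentile as a term gave 6, 3, 2, 23, 12, 26, 18, 2, 1, 0, 0 and 0. Only low-class arrays gave 0, 0, 0, 0, 1, 0, 6, 0, 0, 0, 0 and 0, and only high-class arrays 0, 0, 9, 10 and 0 for comparisons without TOR. With 1 array left out the counts ranged 0 to 4, 0 to 2, 0 to 0, 6 to 19, 9 to 23, 4 to 14, 13 to 29, 0 to 1, 0 to 1, 0 to 0, 0 to 0 and 0 to 2. No named call reversed its sign. Without any 1 array 12 of 26 (TOR fasted), 8 of 19 (TOR fed), 3 of 14 (Rheb fed) and 1 of 10 (Rheb fasted) calls stayed, and in every setting 5, 1, 0 and 0 did. For most of these settings the share of all genes called is not given, so the counts alone do not set the members apart from other genes. The cause of these shifts was not tested.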

Other observations

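The 5 genes outside the members whose level followed the members' mean most closely over the 24 arrays were Y95D11A.1 (r = 0.95), ddi-1 (r = 0.94), nxf-2 (r = 0.94), M18.3 (r = 0.93) and F25H2.12 (r = 0.93). These r are descriptions over arrays that share groups, plates and the split by 25th percentile. The probe set naming mrpl-13 and F13G3.7 stood at a mean log2 intensity of 8.35 in control fed and 8.92 in TOR fasted worms, and the one naming mrpl-58 and osg-1 at 9.29 and 9.26; neither can be given to 1 gene.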
